A study of Homo sapiens with 4 samples.

Results

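The RAB genes encode the largest branch of the RAS superfamily of small GTPases, and their transcripts were followed after induction of a hairpin against the transcription factor p63 in H226 cells. H226 is an established line from a human squamous carcinoma of the lung. Members were the rows of the deposited gene table whose symbol is RAB followed by a number and at most 1 letter. There were 61 such rows among 25369 genes, and 53 of them reached 10 reads in at least 2 libraries and were tested. The study has 4 libraries of polyadenylated RNA in 2 groups. The shControl group (2 cultures) carried a doxycycline-inducible non-targeting short hairpin, and the shp63 group (2 cultures) an inducible hairpin against p63. All 4 cultures were given doxycycline at 1 µg/mL for 6 days, and the submitters describe the 2 cultures of a group as independent biological replicates. The labels name 1 construct per group, so an effect of the hairpin itself and of its target cannot be told apart, and RNA was taken from whole cultures, where fewer cells of a kind and less RNA per cell cannot be told apart.

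RAB proteins switch between a GDP-bound form held in the cytosol by a dissociation inhibitor and a GTP-bound form on a membrane, to which a prenyl anchor at the C terminus attaches them. Exchange factors load GTP at a given organelle, effectors such as tethers and motors are then recruited, and GTPase-activating proteins end the cycle. Each family member marks particular membranes, so that the set of RAB genes a cell expresses describes its routes between the endoplasmic reticulum, Golgi, endosomes, lysosomes, cilium and cell surface. Epithelial cells use RAB11, RAB25, RAB8, RAB10, RAB13 and RAB17 for delivery to their apical, basal and junctional surfaces.

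The libraries held 51926832 to 53924761 counted reads, and levels are given as CPM, the read count scaled to library size. TP63, the targeted gene, had 7533 and 7364 reads in shControl and 1596 and 1530 in shp63, or 136 ± 0.798 against 30.6 ± 0.116 CPM (SD, n = 2 each). Of 10 squamous and basal markers 9 were lower, the targeted TP63 among them, and 1 (KRT6A) was higher in shp63. KRT14 and SOX2 were low already in shControl, at 4.35 and 0.229 CPM, while KRT5 was at 757 CPM there. The summed level of 10 leukocyte markers was 14.96 and 16.4 CPM in shControl and 81.7 and 85.3 CPM in shp63, as CD14, CD68, CSF1R and LYZ rose and ITGAM fell, with TYROBP at 0 and PTPRC at 8 reads or fewer in every library. The sums of 9 mesothelial and 8 endothelial markers were higher as well, from 2622 to 2661 up to 4808 to 4943 CPM and from 62.1 to 67.3 up to 195 to 197 CPM, with PDPN and CLDN5 at 0 reads. The mesothelial sum was mostly the keratins KRT7 (1216 and 1862 CPM), KRT18 (768 and 2008 CPM) and KRT19 (310 and 372 CPM). MSLN rose from 132 to 330 CPM and UPK3B from 215 to 303 CPM, so that all 5 tested mesothelial markers were called higher. WT1, CALB2 and LRRN4 had 8 reads or fewer in every library, and those of WT1 and CALB2 were fewer in shp63. The endothelial sum was mostly CDH5 (56.7 and 187 CPM). ESAM (2.17 to 5.02 CPM) and PECAM1 (1.04 to 1.89 CPM) rose as well, while VWF fell from 4.66 to 1.30 CPM. Of the 4 endothelial markers tested 3 were thus higher and 1 lower. The sum of 10 fibroblast markers went from 113 to 118 down to 86.0 to 93.8 CPM, with DCN at 0 reads. It was mostly COL1A1 (98.7 and 70.7 CPM), while FAP rose from 15.5 to 18.6 CPM and PDGFRB fell from 0.402 to 0.0879 CPM. The part of these markers in the changes described here was not tested.

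The RAB genes moved more often up than down in shp63, mostly by small amounts. Of the 53 tested members 29 were higher, 13 lower and 11 not past the threshold (edgeR quasi-likelihood test, adjusted p under 0.05 over all 14901 genes tested). That is 79.2% of the members called, near the 74.0% called among all genes tested. By direction, 54.7% of the members were called higher against 36.9% of all genes tested, and 24.5% were called lower against 37.1%. The median log2 fold change of the members was 0.13, beside -0.01 over all genes tested. With library totals alone and no correction for composition, 20 members were called higher and 16 lower, so that the share of higher calls fell from 69.0% to 55.6% and the median to 0.04. Over all genes tested that setting called 31.3% higher and 44.2% lower, or 41.4% of calls higher. The median size of the change, whatever its sign, was 0.30 on the log2 scale for the members and 0.36 for all genes tested. Within 1.25-fold lay 28 of the 53 members, beside 6792 of the 14901 genes tested. When tested against a 1.5-fold change, 7 members were called (13.2%), beside 22.7% of all genes tested. These were RAB31, RAB8B, RAB42, RAB3D and RAB19 upward and RAB38 and RAB29 downward. In 46 members, or 86.8%, every library of one group lay above every library of the other, beside 86.4% of all genes tested. Together the RAB rows summed to 3234 and 3169 CPM in shControl and to 3627 and 3712 CPM in shp63.

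**Figure D1:**
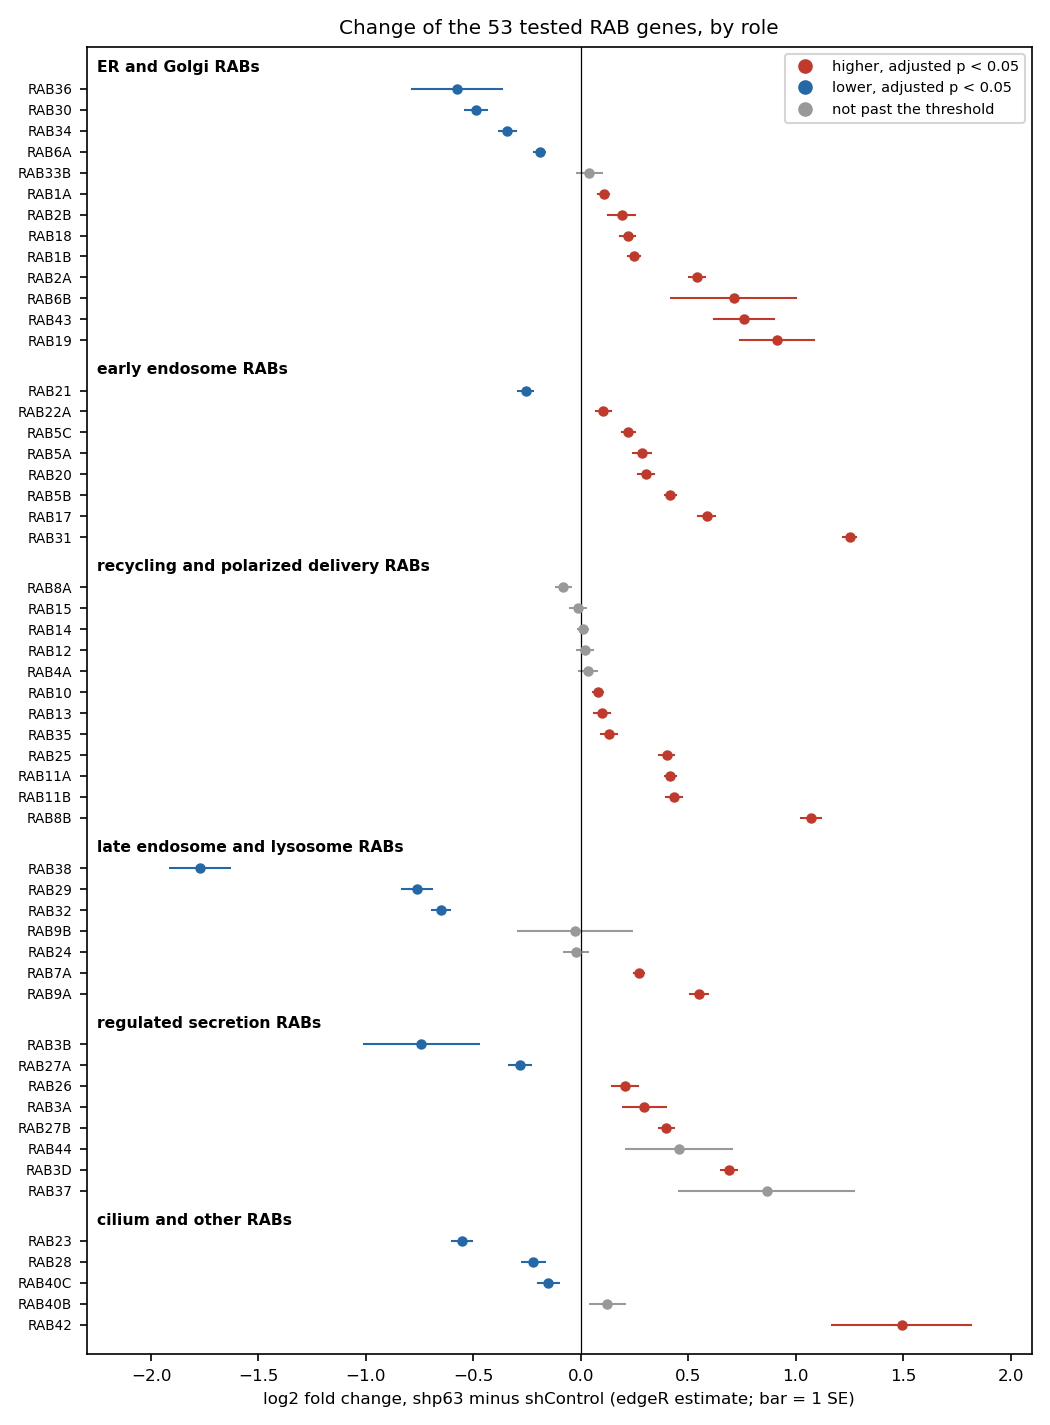
Log2 fold change of each of the 53 tested RAB genes (horizontal axis, shp63 minus shControl, edgeR estimate; bars are 1 SE), grouped by the membrane or route the protein is known for, with color for the call. The early endosome genes lie to the right of 0 except RAB21, and RAB38, RAB29 and RAB32 stand at the left of the late endosome and lysosome group.

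Levels of different genes were compared as RPKM, the CPM divided by the length of the canonical transcript in kilobases. RAB1B, which works between the endoplasmic reticulum and Golgi, had the highest level of the family in shControl, 138 ± 6.19 (SD, n = 2), followed by the late endosome gene RAB7A at 108 ± 0.722. RAB1A (72.9 ± 0.0292), the Golgi gene RAB6A (71.3 ± 0.709) and the early endosome gene RAB5C (68.3 ± 0.533) came next, and RAB32 (63.9 ± 2.13) and RAB25 (63.01 ± 1.76) followed. RAB1A and RAB6A were apart by more than their replicates, whereas RAB32 and RAB25 overlapped within their spread. In shp63 RAB1B and RAB7A were again highest, at 163 ± 0.344 and 130 ± 2.60, while RAB25 moved from the 7th to the 3rd place (83.1 ± 0.715) and RAB32 from the 6th to the 12th (40.7 ± 2.70). RAB31 moved from the 24th place (16.6 ± 0.235) to the 13th (39.5 ± 1.13). At the bottom were RAB37, RAB6B and RAB3B, all under 0.15 in both groups. With the summed length of all annotated exons in place of the canonical transcript, 9 of the 10 highest genes in shControl stayed among the 10 highest, and RAB7A came 9th in place of 2nd.

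**Figure D2:**
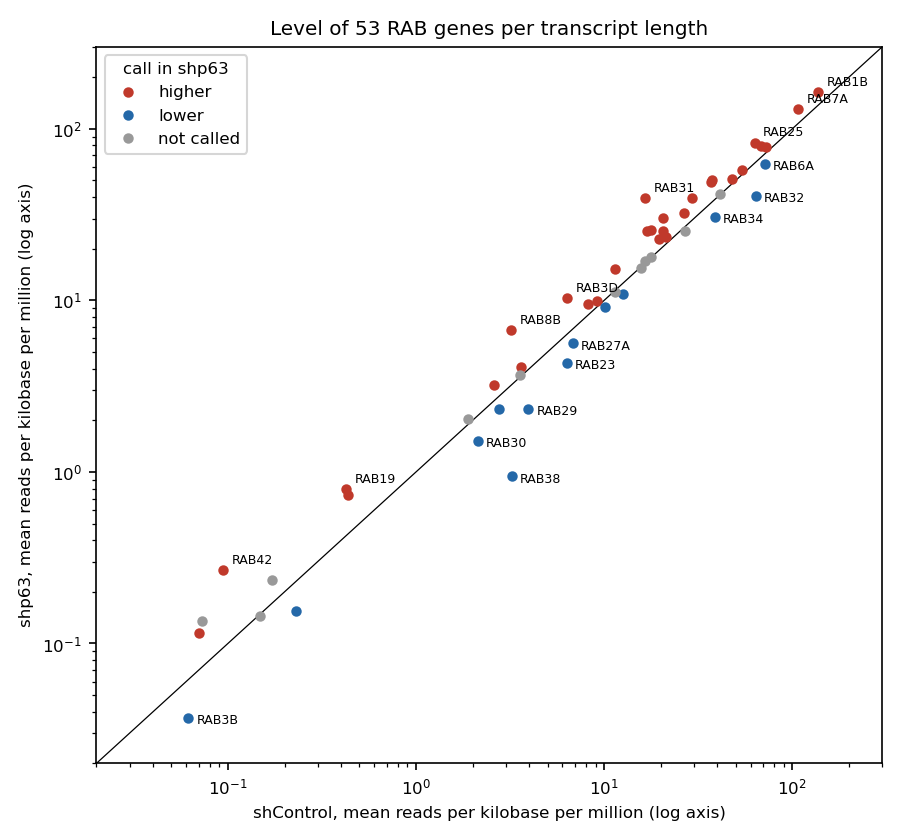
Mean level per transcript length (RPKM) of the 53 tested RAB genes in shControl (horizontal log axis) and shp63 (vertical log axis), colored by call; the diagonal marks equal levels. RAB31 and RAB8B lie above the diagonal and RAB32 and RAB38 below it, while RAB1B and RAB7A remain the highest in both groups.

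Early endosome genes were nearly all higher. Of 8 members 7 were called higher (87.5%) and 1 lower (12.5%), with a median log2 fold change of 0.29. Of all genes tested 36.9% were called higher and 37.1% lower. RAB31, which acts between the trans-Golgi and early endosomes and in receptor trafficking, had 65.6 and 64.3 CPM in shControl and 152 and 158 CPM in shp63. Both shp63 libraries were thus more than double either shControl library, and the gene rose 2.38-fold (log2 fold change 1.25, SE 0.04, adjusted p = 3.08e-18, edgeR with Benjamini-Hochberg). It lies at chr18:9708272-9862548 on the plus strand (GRCh37). RAB17, an epithelial RAB of polarized endosomes, stood at 27.8 and 26.5 CPM in shControl and 41.9 and 39.6 CPM in shp63, a log2 fold change of 0.59 with no overlap. The 3 RAB5 paralogs, which govern fusion of early endosomes, rose together but unequally: RAB5B 1.33-fold (194 ± 5.48 to 259 ± 1.28 CPM), RAB5A 1.22-fold (67.0 ± 1.96 to 81.6 ± 4.96 CPM) and RAB5C 1.17-fold (112 ± 0.875 to 131 ± 5.11 CPM; SD, n = 2 each). RAB20, linked to phagosome maturation, rose 1.23-fold, and RAB22A, a close relative of RAB31, 1.08-fold, a call that did not hold with library totals alone (log2 fold change 0.02). RAB21, which carries integrins through early endosomes, was the member that fell, from 43.4 and 42.9 to 35.1 and 37.2 CPM.

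Among the genes of the endoplasmic reticulum and Golgi 8 of 13 were higher (61.5%), 4 lower (30.8%) and RAB33B was not past the threshold. The shares over all genes tested were 36.9% higher and 37.1% lower. RAB2A, which acts on transport between endoplasmic reticulum and Golgi, had 66.2 and 65.6 CPM in shControl and 93.6 and 98.4 CPM in shp63, a 1.46-fold rise. Its paralog RAB2B went from 10.5 ± 0.424 to 11.97 ± 0.00641 CPM. RAB1B rose 1.19-fold and RAB1A 1.08-fold. With library totals alone the calls of RAB1A (log2 fold change 0.02, adjusted p = 0.535), RAB2B (0.10, adjusted p = 0.181) and RAB6B (0.62, adjusted p = 0.0648) did not hold (edgeR with Benjamini-Hochberg). RAB18, known from the endoplasmic reticulum and lipid droplets, rose 1.16-fold. RAB19 and RAB43 rose from low levels. RAB19 had 0.974 and 1.28 CPM in shControl against 2.27 and 1.97 in shp63, and RAB43, a Golgi RAB, had 1.71 and 2.18 against 3.48 and 3.09. The exons of RAB43 are shared over 79.3% of their length with the readthrough gene ISY1-RAB43, listed at 0 reads in every library, so its count is uncertain. RAB1B (43.8%) and RAB1A (22.9%) share exon length with genes on the opposite strand, with the same limit.

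The members of this group that fell act at the Golgi, but so do members that rose, RAB43 among them. RAB6B, the paralog of RAB6A, was called higher, at 0.394 CPM in shControl and 0.648 CPM in shp63. RAB1B and RAB2A, which act between endoplasmic reticulum and Golgi, rose as well. RAB30 had 20.8 and 21.3 CPM in shControl and 14.7 and 15.3 CPM in shp63, a 1.40-fold fall (log2 fold change -0.49, SE 0.06). RAB34, known from the Golgi, lysosome positioning and ciliogenesis, went from 67.4 and 67.7 to 52.0 and 54.6 CPM. RAB6A, the main RAB of traffic within and out of the Golgi, went from 239 and 235 to 202 and 213 CPM, a 1.14-fold fall in which the groups did not overlap. RAB36 fell from 1.15 ± 0.0253 to 0.775 ± 0.117 CPM (SD, n = 2 each). Adjusted p values were 8.84e-08 for RAB30, 2.80e-07 for RAB34, 1.04e-05 for RAB6A and 0.0193 for RAB36 (edgeR with Benjamini-Hochberg).

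In the recycling and polarized delivery group 7 of 12 members were higher (58.3%), none was lower and 5 did not pass the threshold. Over all genes tested 36.9% were higher and 37.1% lower. With library totals alone 4 members of the group were higher (RAB8B, RAB11A, RAB11B and RAB25) and 3 lower (RAB8A, RAB14 and RAB15). RAB8B, a paralog of RAB8A that serves delivery to the cell surface and cell junctions, had 15.7 and 15.1 CPM in shControl and 32.3 and 32.4 CPM in shp63. This rise by 1.07 on the log2 scale (SE 0.05, adjusted p = 2.1e-14, edgeR with Benjamini-Hochberg) contrasted with RAB8A, at 69.0 and 69.6 CPM against 65.4 and 65.7 CPM (adjusted p = 0.0748). RAB8B lies at chr15:63481759-63559975 on the plus strand (GRCh37). The recycling endosome genes RAB11A, RAB11B and the epithelial RAB25 rose by nearly the same factor. RAB11A had 187 and 179 CPM in shControl and 244 and 246 in shp63 (1.33-fold), RAB11B had 46.3 and 46.6 against 64.6 and 60.9 (1.35-fold), and RAB25 had 70.7 and 67.9 against 92.0 and 90.9 (1.32-fold). RAB10, RAB13 and RAB35 rose by 1.06-fold to 1.10-fold, and with library totals alone none of these calls held, at log2 fold changes of -0.0082, 0.01 and 0.04 (adjusted p = 0.792, 0.826 and 0.327, edgeR with Benjamini-Hochberg). The 5 members not past the threshold were RAB8A, RAB15, RAB14, RAB12 and RAB4A, of which the last 4 had log2 fold changes between -0.01 (RAB15) and 0.03 (RAB4A). Exons of RAB8A are covered by genes on the other strand over 39.7% of their length; HSH2D, one of the genes overlapping RAB8A, rose from 2.76 to 13.6 CPM, and its part in the RAB8A count was not tested.

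The late endosome and lysosome group divided, with RAB38, RAB29 and RAB32 lower, RAB7A and RAB9A higher, and RAB24 and RAB9B not past the threshold. That is 42.9% lower and 28.6% higher, beside 37.1% and 36.9% of all genes tested. RAB32 and RAB38 serve the biogenesis of lysosome-related organelles such as melanosomes, and RAB29, their relative in sequence, works with the kinase LRRK2 at the trans-Golgi and lysosome. RAB38 had 4.40 and 4.84 CPM in shControl and 1.54 and 1.16 CPM in shp63. Both shp63 libraries lay far under the shControl libraries, and expression was 3.41-fold lower (log2 fold change -1.77, SE 0.14, adjusted p = 2.72e-10, edgeR with Benjamini-Hochberg), which made it the largest fall of the family. RAB29 went from 13.7 and 12.4 to 7.59 and 7.80 CPM (1.70-fold lower), and RAB32 from 69.6 and 66.4 to 41.3 and 45.4 CPM (1.57-fold lower). RAB38 lies at chr11:87846419-87908611 on the minus strand, RAB29 at chr1:205737114-205744610 on the minus strand and RAB32 at chr6:146864969-146876089 on the plus strand (GRCh37), so these genes are on separate chromosomes. Of 7 melanocyte markers MITF was at 35.0 and 33.3 CPM and PMEL rose from 2.62 to 4.53 CPM, while SOX10 and MLANA had 0 reads in every library.

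RAB9A, which returns mannose 6-phosphate receptors from late endosomes to the Golgi, had 42.4 and 41.5 CPM in shControl and 59.0 and 64.0 CPM in shp63, a 1.46-fold rise. RAB7A, which controls fusion of late endosomes with lysosomes, was 1.21-fold higher in shp63, at 284 ± 5.69 against 235 ± 1.58 CPM (SD over 2 libraries). The adjusted p was 3.10e-10 for RAB9A and 3.34e-08 for RAB7A (edgeR with Benjamini-Hochberg). RAB24, linked to autophagy, was at 18.2 and 17.9 CPM, and RAB9B at 0.559 and 0.547 CPM. RAB24 shares 44.8% of its exon length with MXD3 on the same strand, which fell from 18.7 to 6.03 CPM, so the RAB24 count is uncertain.

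Genes of regulated secretion went in both directions. Of 8 members 4 were higher (50%) and 2 lower (25%), beside 36.9% and 37.1% of all genes tested. RAB3D, which marks secretory granules of exocrine cells, had 26.7 and 27.4 CPM in shControl and 43.5 and 43.8 CPM in shp63, a 1.61-fold rise (log2 fold change 0.69, SE 0.04, adjusted p = 7.18e-13, edgeR with Benjamini-Hochberg). Exons of RAB3D are covered by genes on the opposite strand over 24.0% of their length, and among the genes overlapping RAB3D, TMEM205 and CCDC159 rose too (53.3 to 141 and 2.04 to 4.72 CPM); since the strand setting of the counting is not given in the sources used here, their part in the RAB3D count was not tested. RAB3A, known from synaptic vesicles, rose from 3.90 ± 0.200 to 4.79 ± 0.0275 CPM, while RAB3B fell from 0.786 ± 0.164 to 0.469 ± 0.0985 CPM (SD, n = 2 each). The RAB27 paralogs, which bring secretory granules, melanosomes and exosome-forming endosomes to the plasma membrane, went in opposite directions. RAB27A fell from 24.2 and 22.8 to 18.7 and 20.0 CPM (1.22-fold, adjusted p = 9.47e-05), and RAB27B rose from 83.0 and 77.9 to 105 and 107 CPM (1.32-fold, adjusted p = 7.06e-09, edgeR with Benjamini-Hochberg). RAB26 rose 1.15-fold, and RAB37 (0.191 and 0.351 CPM) and RAB44 (0.733 and 1.00 CPM) did not pass the threshold. With library totals alone the calls of RAB3A (log2 fold change 0.21) and RAB26 (0.12) did not hold.

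Of the 5 remaining members 3 fell (60%) and 1 rose (20%), beside 37.1% and 36.9% of all genes tested. RAB23, a negative regulator of Hedgehog signalling linked to the cilium, had 31.4 and 29.8 CPM in shControl and 21.7 and 20.0 CPM in shp63, a 1.47-fold fall (log2 fold change -0.55, SE 0.05, adjusted p = 3.48e-09, edgeR with Benjamini-Hochberg). Its exons overlap those of BAG2 on the opposite strand over 57.8% of their length, and BAG2 fell from 41.1 to 24.8 CPM; whether reads were shared was not tested. RAB28, linked to the cilium, fell 1.17-fold and RAB40C, a RAB with a SOCS box, 1.11-fold. RAB40B was at 7.21 ± 0.0671 and 7.84 ± 0.765 CPM (SD, n = 2 each; adjusted p = 0.202). RAB42 rose from 12 and 11 reads to 30 and 31 reads, or 0.216 and 0.205 to 0.577 and 0.618 CPM, the largest fold change upward in the family (2.81-fold) at one of its lowest levels.

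**Figure D3:**
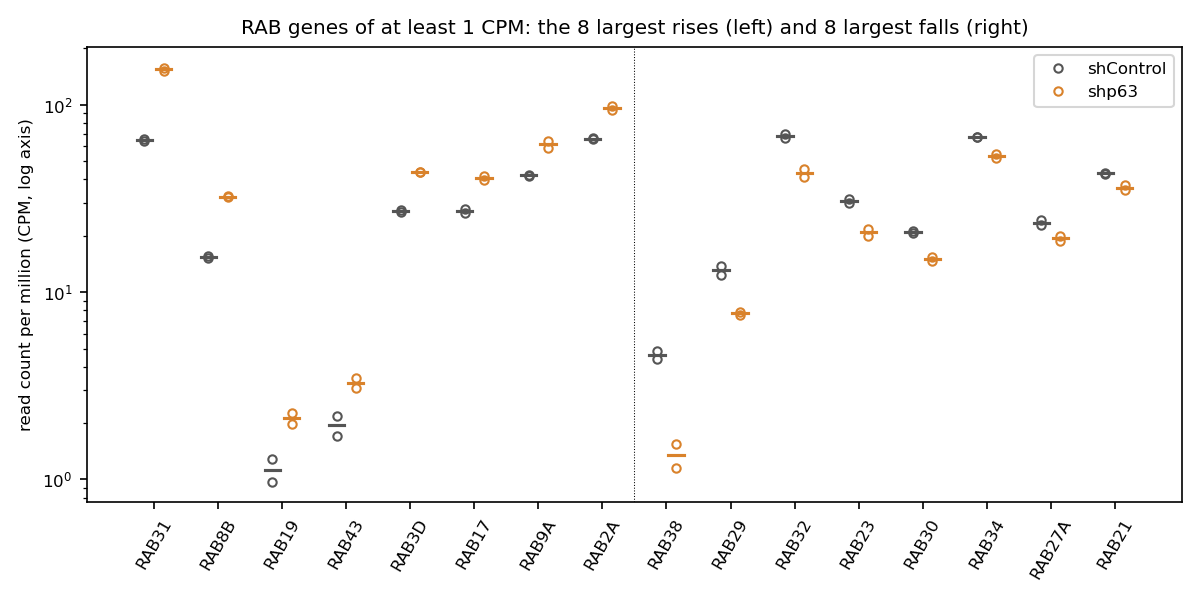
CPM (log axis) in each library for the RAB genes of at least 1 CPM on average with the 8 largest rises (left of the dotted line) and the 8 largest falls (right); circles are libraries and bars are group means. The genes were chosen for the size of their change, so the separation of the groups follows from the choice; RAB31 is at 65.6 and 64.3 CPM against 152 and 158, and RAB38 at 4.40 and 4.84 CPM against 1.54 and 1.16.

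Sequences upstream of the start are given for 5 well-counted members with large changes, chosen after their values were seen (RAB31, RAB8B and RAB3D, which rose, and RAB32 and RAB29, which fell), to show how these regions differ in base content and GC boxes. Of the 53 members 42 had an entry; RAB38, RAB2A and RAB20 are among those without one. Each line is the 250 bases before the annotated start, 5′ to 3′ on the strand of the gene, with every GGGCGG box on either strand (GGGCGG or CCGCCC as printed) in capitals (GRCh38, RefSeq).
RAB31: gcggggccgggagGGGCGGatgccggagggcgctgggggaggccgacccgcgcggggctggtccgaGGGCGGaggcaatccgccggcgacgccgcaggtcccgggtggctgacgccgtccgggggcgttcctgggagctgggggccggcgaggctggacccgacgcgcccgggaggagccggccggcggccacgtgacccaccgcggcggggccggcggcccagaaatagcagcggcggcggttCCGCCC
RAB8B: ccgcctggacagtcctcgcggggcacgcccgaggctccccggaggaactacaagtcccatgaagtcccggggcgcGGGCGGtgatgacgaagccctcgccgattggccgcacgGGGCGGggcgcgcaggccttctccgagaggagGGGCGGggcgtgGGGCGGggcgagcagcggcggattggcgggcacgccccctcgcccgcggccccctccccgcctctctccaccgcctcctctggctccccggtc
RAB3D: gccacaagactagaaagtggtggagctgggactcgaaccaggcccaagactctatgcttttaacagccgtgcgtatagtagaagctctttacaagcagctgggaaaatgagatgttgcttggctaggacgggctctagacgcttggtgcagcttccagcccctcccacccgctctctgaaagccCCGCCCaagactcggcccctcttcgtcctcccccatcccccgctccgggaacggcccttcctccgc
RAB32: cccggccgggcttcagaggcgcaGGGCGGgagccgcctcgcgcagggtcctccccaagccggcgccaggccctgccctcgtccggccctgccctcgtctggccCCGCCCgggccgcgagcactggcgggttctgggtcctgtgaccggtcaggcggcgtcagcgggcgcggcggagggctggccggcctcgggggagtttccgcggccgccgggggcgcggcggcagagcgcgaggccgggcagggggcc
RAB29: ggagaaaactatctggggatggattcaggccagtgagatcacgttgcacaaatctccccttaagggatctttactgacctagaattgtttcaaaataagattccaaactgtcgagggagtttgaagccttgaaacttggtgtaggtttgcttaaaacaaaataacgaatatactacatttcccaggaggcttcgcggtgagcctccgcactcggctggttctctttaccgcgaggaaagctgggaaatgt

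These windows lie at chr18:9708051-9708300 for RAB31, chr15:63189356-63189605 for RAB8B, chr19:11339658-11339907 for RAB3D, chr6:146543583-146543832 for RAB32 and chr1:205775483-205775732 for RAB29 (GRCh38). RAB31 and RAB32, which moved in opposite directions, had the same share of G and C (82.0%), with 3 and 2 GC boxes. RAB8B had 77.2% and 4 boxes, RAB3D 59.6% and 1 box, and RAB29 45.2% and no box. Over the members with an entry 36 of 42 windows (85.7%) held GGGCGG, against 42.6% of the 35116 windows of 250 bases in the table, which covers genes of every kind. All entries of the table were counted there, while each member was searched in its first entry only. GGGCGG was found in 23 of the 25 searched members that were called higher and 7 of the 11 called lower. The palindrome CACGTG was found in 5 members (RAB31, RAB5A, RAB21, RAB24 and RAB4A), or 11.9% against 6.34% of all windows, and in RAB31 it begins 60 bases before the start. TGANTCA, read on both strands, was found in RAB3B and RAB5B (4.76% against 6.57%). The p53 family core, searched as a pair of C, A or T, A or T, G half-sites with 6 bases between them, was found in RAB5B alone (2.38% against 4.02%). These matches describe the letters of 1 annotated start per gene and were not tied to binding in these cells.

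Ratios between related genes within a library do not depend on how libraries are scaled. The following were picked from 12 computed pairs after their values were seen. RAB27B had 3.43 and 3.41 reads for each RAB27A read in shControl and 5.599 and 5.37 in shp63. RAB8B had 0.227 and 0.217 reads per RAB8A read in shControl and 0.493 in both shp63 libraries. RAB31 had 0.834 and 0.802 reads per read of its relative RAB22A, and 1.82 and 1.80 in shp63, so that the order of the pair by reads turned over. The pair of RAB25 to RAB11A stayed within 0.370 to 0.379 in all 4 libraries, and RAB11A to RAB11B within 3.78 to 4.05, where the groups overlapped. The difference of log2 fold changes was 0.68 (SE 0.07) between RAB27B and RAB27A, 1.15 (SE 0.06) between RAB8B and RAB8A, and -0.02 (SE 0.05) between RAB25 and RAB11A, with SEs combined as if the genes were independent. For 1 ratio, the smallest p that a two-sided exact permutation test can give with 2 libraries per group is 0.333.

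**Figure D4:**
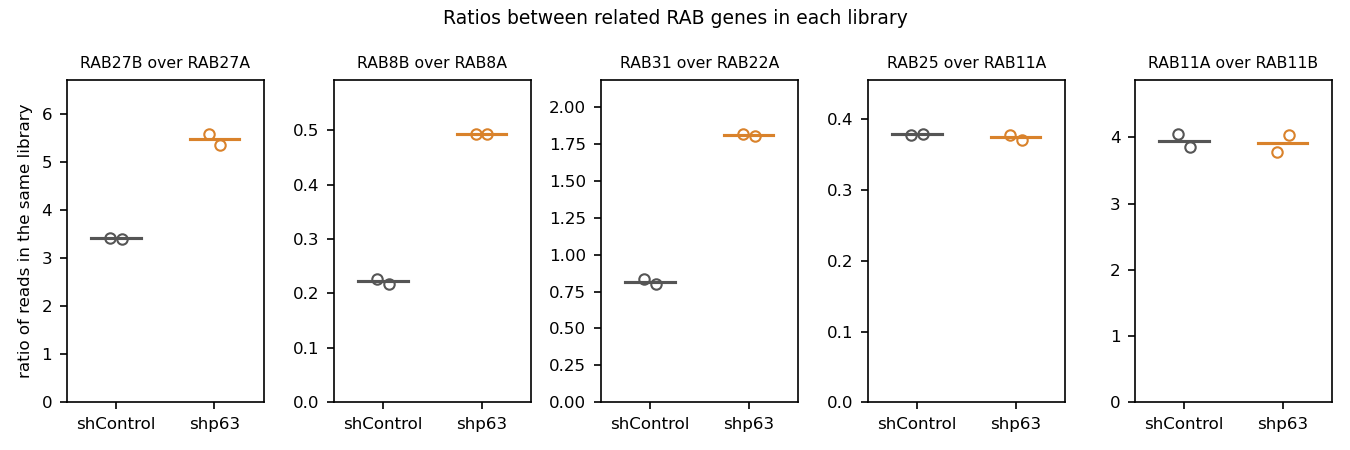
Ratio of reads between related RAB genes in each library (circles; bars are group means; each panel starts at 0 and has its own scale). The RAB27, RAB8 and RAB31 to RAB22A ratios are higher in both shp63 libraries, while for RAB25 to RAB11A and RAB11A to RAB11B the ranges of the groups overlap.

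The proteins that run the RAB cycle were examined through 4 lists written from general knowledge. Of 126 tested genes 65 were higher (51.6%) and 40 lower (31.7%), beside 36.9% and 37.1% of all genes tested. Of the 126 genes 83.3% were called, beside the 74.0% of all genes tested, and their median log2 fold change was 0.15. Among 11 genes of prenylation and membrane cycling 6 rose (54.5%) and 3 fell (27.3%). RABAC1, a prenylated RAB acceptor, rose 2.37-fold from 19.3 ± 0.215 to 45.6 ± 0.404 CPM and its relative PRAF2 rose 1.66-fold. CHML, a RAB escort protein gene, was 2.56-fold lower in shp63, at 27.7 ± 1.36 against 71.0 ± 3.86 CPM (SD over 2 libraries), while its paralog CHM went from 56.1 to 62.0 CPM. RABGGTB, the catalytic subunit of the prenyltransferase, fell 1.19-fold.

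Of 34 exchange factors 11 were higher (32.4%) and 14 lower (41.2%), near the 36.9% and 37.1% of all genes tested. RIN1, an exchange factor for RAB5, fell 2.55-fold from 37.0 ± 0.306 to 14.5 ± 0.119 CPM, and DENND4A, which acts on RAB10, fell 1.90-fold. DENND5B rose from 25.9 to 39.5 CPM and DENND2D from 17.0 to 26.0 CPM. DENND2A, chosen after its value was seen, had the largest fold change of the list, at 0.449 and 1.95 CPM. Of 31 GTPase-activating proteins 19 rose (61.3%) and 8 fell (25.8%), all but TBC1D4 by amounts that did not pass the 1.5-fold test. TBC1D4, which acts on RAB10 in glucose transporter traffic, was 1.67-fold lower in shp63, at 26.3 ± 0.809 against 43.8 ± 0.0655 CPM (SD over 2 libraries), and TBC1D2B fell 1.40-fold. TBC1D9 rose 1.34-fold and USP6NL, which acts on RAB5, rose 1.31-fold.

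Of 50 effectors 29 were higher (58%) and 15 lower (30%), beside 36.9% and 37.1% of all genes tested. Among these effectors 11 (22.0%) passed the 1.5-fold test, beside the 22.7% of all genes tested. SYTL2 and SYTL1 encode synaptotagmin-like proteins that bind RAB27. SYTL2 was at 20.1 ± 0.452 CPM in shControl and 61.6 ± 0.361 in shp63 (3.07-fold higher). SYTL1 was at 28.0 ± 0.616 and 9.73 ± 0.0510 CPM (SD over 2 libraries), 2.88-fold lower. MICAL1, an actin-oxidizing effector of RAB35 and RAB8 family members, rose 3.36-fold from 21.7 ± 1.51 to 72.9 ± 3.28 CPM, and MICALL1, a scaffold of recycling endosomes, fell 1.91-fold from 121 ± 0.195 to 63.6 ± 3.39 CPM. MLPH, the adaptor between RAB27A and myosin Va, and MYO5A, the gene of that motor, were chosen after their values were seen. MLPH went from 6.38 to 24.3 CPM and MYO5A from 97.2 to 56.9 CPM. Adjusted p values were 8.03e-20 for SYTL2, 3.66e-16 for SYTL1, 4.38e-18 for MICAL1 and 4.60e-15 for MICALL1 (edgeR with Benjamini-Hochberg).

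Calls of members with small changes or few reads were lost or gained when 1 library was left out. Each such fit has fewer libraries, so a lost call does not show that it rested on the library left out. Without shControl replicate 1, the adjusted p was 0.0935 for RAB22A, 0.141 for RAB2B, 0.188 for RAB3B and 0.151 for RAB6B, and RAB37 was called (0.0271). Without shControl replicate 2, it was 0.280 for RAB10, 0.309 for RAB13, 0.0640 for RAB22A, 0.0801 for RAB35, 0.0553 for RAB36, 0.114 for RAB3A and 0.227 for RAB40C. Without shp63 replicate 1, it was 0.159 for RAB26, 0.0546 for RAB28, 0.0526 for RAB2B, 0.167 for RAB36 and 0.0569 for RAB3A. Without shp63 replicate 2, it was 0.0665 for RAB10, 0.116 for RAB13, 0.1105 for RAB22A, 0.149 for RAB3B, 0.0514 for RAB40C and 0.376 for RAB6B, and RAB37 (0.0434) and RAB44 (0.00938) were called. All of these are edgeR adjusted p values (Benjamini-Hochberg). DESeq2 did not call RAB10, RAB13, RAB22A, RAB26, RAB2B, RAB36, RAB3A, RAB3B, RAB40C and RAB6B (adjusted p from 0.0628 to 0.251). Calls for 29 members, 20 higher and 9 lower, held under all 11 other settings that tested the member (4 of them with a library left out), leaving aside the 1.5-fold test. The share of all genes whose calls held in this way was not computed. With 1 library left out, the lone library of a group is assumed to vary like those of the other.

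The 8 rows that did not reach the read minimum had at most 8 reads in a library. RAB39A, RAB39B and RAB41 were listed at 0 in all 4 libraries, and RAB33A, RAB3C, RAB40A, RAB4B and RAB6C had a few reads. RAB4B shares exons over 36.8% of their length with the readthrough genes MIA-RAB4B, at 0 reads, and RAB4B-EGLN2, at 6 reads or fewer, so its count of 0 or 1 read does not give its level. RAB6C is a near copy of RAB6A, and reads that fit both are uncertain. In all, 11 of the 53 tested members have over 10% of their exon length covered by another gene on 1 strand or the other.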

How the data were processed

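The deposited table holds raw whole-number read counts per gene symbol for 4 libraries, not normalized by the authors. Per the series' design text, libraries came from a stranded kit and reads were aligned to GRCh37 (hg19) and counted per gene; per the submitters' processing notes the tools were TopHat2 2.0.13 and HTSeq 0.6.1. The annotation and strand setting are not given in the sources used here. Columns were matched to samples by name.

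Counts were tested with edgeR 4.0.16 (R 4.3.3): filterByExpr defaults (14901 of 25369 genes kept), TMM factors (0.966 to 1.03), robust quasi-likelihood fit with group as the only term, Benjamini-Hochberg adjustment over all genes tested, calls under 0.05. The common biological coefficient of variation was 0.0308, so small changes were called. Each gene had 2 residual degrees of freedom, to which the fit added a median of 18.8 borrowed from all genes. The script was tested on simulated data in which few genes were changed, so that test could not check the correction for composition. CPM uses the TMM factors; errors are SD over 2 libraries and p-values measure the spread between cultures. Replicates differed beyond counting noise (chi-square per degree of freedom 3.30 and 3.60).

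Transcript lengths, positions and exon overlaps are from GENCODE 44 mapped to GRCh37, and promoter windows from RefSeq (GRCh38). The members and lists were chosen with earlier results of these data known. Named with values per library were the 8 largest called changes per direction at 1 CPM or more; close paralogs, members not past the threshold and, per partner list, the 2 smallest adjusted p per direction were named too. Other settings tried were RLE factors, library totals, other filters, DESeq2 1.42.0, limma-voom (limma 3.58.1), a 1.5-fold test (glmTreat), a replicate block and leaving out each library.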

Additional observations from a re-analysis of the deposited data

How the results depend on the processing

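The count of called RAB genes (42, with 29 higher and 13 lower) kept within 1.5 times under RLE factors, library totals, no filter, a 1 CPM filter (6 members then not tested), DESeq2, limma-voom, the replicate block and each library left out. It was lowest with DESeq2 (32, with 22 higher and 10 lower). Calls over all genes were fewer there too, at 9372 of 16330, beside 11033 of 14901 in the main test. Leaving out 1 library gave 35 to 39 called, 24 to 27 higher, 11 to 12 lower, 101 to 104 of the regulator and effector genes, and a median log2 fold change of 0.12 to 0.15; the highest median, 0.1508, came without shp63 replicate 2. Under the test against a 1.5-fold change, 7 RAB genes were called, 5 higher and 2 lower, and 18 of the regulator and effector genes in place of 105, as that test asks for more than a difference from 0. It called 3385 genes in all in place of 11033. With library totals and no composition factor, the median log2 fold change of the members was 0.044, RAB10 stood at -0.0082 (adjusted p = 0.792) and RAB14 at -0.077 (adjusted p = 0.0142, edgeR with Benjamini-Hochberg), against 0.08 and 0.01, and the median over all genes moved from -0.01 to -0.10. RAB8A and RAB15 were called lower there. With the replicate block, 41 RAB genes were called, 28 higher and 13 lower; RAB13 lost its call (adjusted p = 0.0845) and no other RAB gene changed its call. Libraries of the same number did not deviate together (r = -0.112 over genes), so a crossed pairing, chosen after seeing the data, was tried. The crossed pairing called 44 RAB genes, and 11387 of the 14901 genes tested. With 51926832 to 53924761 reads per library, members under 1 CPM rest on few reads, and their small changes were not detectable at this depth.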
